A study of Mus musculus with 12 samples.

Results

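The 10 genes described here make up the core of antigen presentation by class I molecules of the major histocompatibility complex (MHC). They are 6 heavy chains (H2-K1, H2-D1, H2-Q4, H2-Q6, H2-Q7 and H2-T23), the light chain B2m, both subunits of the peptide transporter (Tap1 and Tap2) and the loading factor tapasin (Tapbp). They were chosen by symbol from the 18514 genes of the count table, and all 10 had enough reads to be tested, among 15484 genes tested in all. The libraries were made from colorectal tissue of male C57BL/6 mice, bought at 4 weeks of age, in a study of swimming before and during azoxymethane and dextran sulfate sodium (AOM/DSS) treatment, a chemical model of colitis-associated cancer. Each of the 4 groups held 3 libraries, numbered as in the labels. Ctrl mice had ordinary drinking water and were not trained. Ctrl_Swim mice had the same water and swam daily, building up to 90 min a day, from 2 months before the other mice had AOM until the end. Model mice had 1 injection of AOM at 10 mg/kg and then 3 cycles of 7 days of 2% DSS in the drinking water. Model_Swim mice had the AOM and DSS of the Model group and the training of the Ctrl_Swim group. Untrained mice were placed in shallow water. Library totals ran from 17256953 to 19451055 counts, and the smallest count of any member was 222, for H2-Q6 in Ctrl 2.

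Class I molecules carry short peptides from proteins made inside the cell to its surface, where CD8+ T cells and natural killer cells read them. Peptides cut by the proteasome are pumped into the endoplasmic reticulum by Tap1 and Tap2 and loaded, with the help of tapasin, onto a heavy chain that is paired with B2m. Nearly all nucleated cells express these genes, epithelium and leukocytes alike, and they are known to rise with interferon gamma, through IRF factors and Nlrc5, and with inflammatory signals that act through NF-kappa B. H2-K1 and H2-D1 are the classical heavy chains of this strain, which present varied peptides to T cells. H2-Q4, H2-Q6 and H2-Q7 are non-classical chains of the Qa region, of which H2-Q6 and H2-Q7 encode forms of the Qa-2 antigen. H2-Q4, H2-Q6 and H2-Q7 are called the Qa genes below, and other H2-Q genes are not among the members. H2-T23 encodes Qa-1, which shows a leader peptide of other class I chains to the NKG2A receptor.

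In RefSeq annotation of GRCm38.p6, 9 of the 10 members lie on chromosome 17 and B2m lies on chromosome 2. Tapbp (33919478 to 33929290), H2-K1 (33996012 to 34000619), Tap1 (34187556 to 34197225) and Tap2 (34204479 to 34216321) stand at the proximal end of the chromosome 17 group. H2-D1 (35263094 to 35267497), H2-Q4 (35379617 to 35384674), H2-Q6 (35424850 to 35430055), H2-Q7 (35439140 to 35443773) and H2-T23 (36029977 to 36032701) follow. B2m spans 122147687 to 122153082 of chromosome 2. The heavy chain genes are close relatives, so reads can be split between them. Of the 100-base stretches in annotated transcripts, 12% of those of H2-Q7 and 10.8% of those of H2-Q6 also lie in another gene, against 3.59% for H2-D1, 3.15% for H2-T23, 2.16% for H2-Q4 and 0.957% for H2-K1. For H2-Q6, 8.36% are shared with H2-Q7 itself. In this respect the levels of these close copies are less certain than those of B2m, Tap1 and Tap2, which share none. Tap1 overlaps Psmb9 on the opposite strand, and the strand setting of the counting was not given in the sources used here. B2m, Tap2, H2-Q4 and H2-T23 also overlap other annotated genes on the opposite strand. Tapbp overlaps Zbtb22 on its own strand and Gm19412 on the other.

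The promoters are shown because the heavy chain genes share short elements there. RefSeq windows of GRCm38.p6, 250 bases upstream to 50 downstream of a start, were found for 9 members, all but Tap2. Both strands were searched for GGGNNTTCC (a kappa B-type element), GAAANNGAA and its reversed spacing GAANNGAAA (elements of the kind read by IRF factors), CCAAT and TGACG (the core of the site read by CREB factors). These stretches are printed 5' to 3' along the gene, with the matches in capitals on either strand, so that ATTGG is a CCAAT box and TTTCACTTC a GAANNGAAA match of the other strand.
H2-K1 (chr17:34000328-34000468, minus strand): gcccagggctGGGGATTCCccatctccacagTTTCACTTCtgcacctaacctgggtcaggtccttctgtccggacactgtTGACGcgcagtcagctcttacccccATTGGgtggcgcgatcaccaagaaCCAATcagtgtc
H2-Q6 (chr17:35424667-35424809, plus strand): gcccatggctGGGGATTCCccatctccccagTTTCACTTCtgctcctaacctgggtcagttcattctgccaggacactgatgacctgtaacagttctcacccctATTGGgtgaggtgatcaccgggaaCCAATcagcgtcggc
H2-Q7 (chr17:35439012-35439153, plus strand): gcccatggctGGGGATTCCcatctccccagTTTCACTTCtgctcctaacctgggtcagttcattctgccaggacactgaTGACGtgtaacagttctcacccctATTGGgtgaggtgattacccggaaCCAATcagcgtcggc
H2-D1 (chr17:35262923-35262952, plus strand): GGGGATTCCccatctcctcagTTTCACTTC
B2m (chr2:122147538-122147648, plus strand): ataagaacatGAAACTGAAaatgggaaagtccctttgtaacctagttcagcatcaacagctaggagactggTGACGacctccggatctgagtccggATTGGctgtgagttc
H2-T23 (chr17:36032795-36032824, minus strand): TTCTCTTTCataaagacacaaatgatgcag
The same order, a kappa B-type match, then TTTCACTTC, then ATTGG and CCAAT, is seen in H2-K1, H2-Q6 and H2-Q7. Only 30 bases are printed for H2-D1 and H2-T23, because an annotated transcript of each covers more of the window.

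GGGNNTTCC was found in 5 of the 9 member windows (H2-K1, H2-D1, H2-Q4, H2-Q6 and H2-Q7), against 5.82% of all 32851 promoter windows. GAANNGAAA was found in the same 5 windows, against 7.52% of all windows, and its spacing was added to the search after the sequences had been read. GAAANNGAA was found only in H2-T23 and B2m, against 8.56%. CCAAT was found in all 9, against 37.4%, and TGACG in 6, against 20.8%. The kappa B-type match began between -173 (H2-Q4 and H2-Q6) and -111 (H2-K1) from the start in the RefSeq window. The heavy chain genes descend from common copies, so their windows are not separate observations, and the matches are held both by the Qa genes, which passed the test in Model against Ctrl, and by the classical genes, which did not pass in that comparison.

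**Figure D1:**
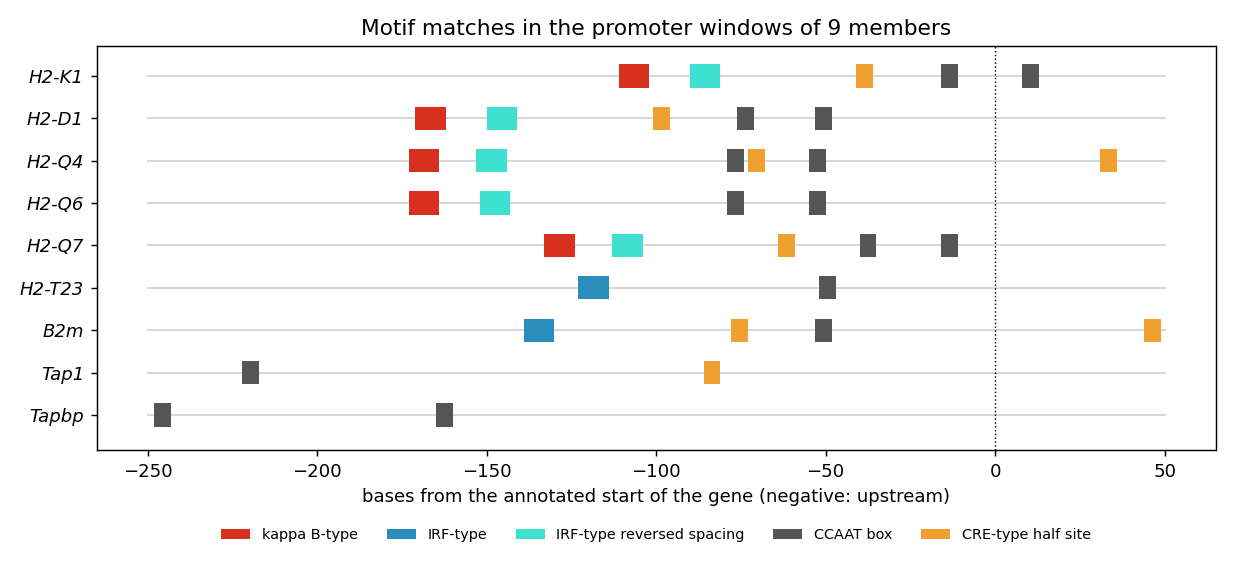
Positions of the 5 searched elements in the 300-base promoter windows of 9 members, in bases from the annotated start (dotted line). H2-K1, H2-D1, H2-Q4, H2-Q6 and H2-Q7 show a kappa B-type match followed by an IRF-type match of reversed spacing and a pair of CCAAT boxes, and H2-T23 and B2m show the other IRF-type spacing.

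Per length, class I transcripts were abundant in untreated colorectal tissue. On the FPKM scale the Ctrl means were highest for B2m (746 ± 19.6, SD, n = 3), H2-D1 (490 ± 12.1) and H2-K1 (396 ± 21.0), and none of these neighbours overlapped in range. H2-T23 (169 ± 6.96), Tapbp (76.0 ± 2.42) and H2-Q4 (33.6 ± 2.27) followed, again without overlap. Tap2 (18.1 ± 0.588) and Tap1 (16.2 ± 1.04) did not overlap either, while H2-Q6 at 13.9 ± 1.84 lay below Tap1 with a highest value of 15.0 against a lowest of 15.1 for Tap1. H2-Q7 was lowest, at 10.8 ± 0.599. In Model the order was B2m (1001 ± 280), H2-D1 (647 ± 150), H2-K1 (531 ± 169), H2-T23 (178 ± 35.8), Tapbp (93.1 ± 12.3), H2-Q4 (68.1 ± 26.6), H2-Q6 (40.0 ± 19.9), H2-Q7 (34.3 ± 15.1), Tap1 (29.7 ± 10.7) and Tap2 (26.5 ± 7.24), so that H2-Q6 and H2-Q7 lay above the transporter genes, with overlapping ranges. B2m stood at 0.670 ± 0.00399 FPKM per FPKM of summed heavy chain in Ctrl, at 0.732 ± 0.0417 in Ctrl_Swim, at 0.666 ± 0.0285 in Model and at 0.682 ± 0.0559 in Model_Swim.

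The Qa genes and the peptide transporter passed as higher in Model than in Ctrl, but only the calls of H2-Q6 and H2-Q7 held under each setting tried. In Model against Ctrl, 5 of 10 members passed the test (edgeR, adjusted p under 0.05), all of them higher: H2-Q7, H2-Q6, H2-Q4, Tap1 and Tap2. Over all genes tested, 16.5% passed as higher and 16.2% as lower in this comparison. H2-Q6 and H2-Q7 were also past the 2-fold limit that the study used, as were 6.21% of all genes on the higher side. The median difference of the 10 members was 0.37 on the log2 scale, against 0.0055 over all genes. The classical chains, B2m, Tapbp and H2-T23 did not pass. Whether more transcript per cell or more cells that express these genes gave such a rise cannot be told apart in bulk tissue.

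Among the Qa genes, H2-Q7 stood at 18.4, 17.8 and 16.5 CPM (counts scaled to library size, with TMM factors) in Ctrl 1, 2 and 3 and at 36.8, 76.5 and 41.0 CPM in Model 1, 2 and 3. Every Model library was above every Ctrl library, and Model 2 was far above the other two. The fitted difference was 1.55 on the log2 scale (SE 0.30, adjusted p = 0.00359 by edgeR), or 2.92-fold.

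H2-Q6 read 15.8, 12.1 and 15.6 CPM in Ctrl 1, 2 and 3 and 27.1, 59.7 and 28.3 CPM in Model 1, 2 and 3. The groups did not overlap and Model 2 again led. Its difference was 1.40 on the log2 scale (SE 0.32, adjusted p = 0.00808 by edgeR), or 2.65-fold. H2-Q4, which was more abundant than H2-Q6 and H2-Q7, read 69.3, 59.2 and 63.7 CPM in Ctrl and 92.5, 171 and 94.7 CPM in Model. Those groups were also apart, with a difference of 0.90 on the log2 scale (SE 0.25, adjusted p = 0.0186 by edgeR).

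The transporter genes followed. Tap1, the subunit that shares its promoter region with the immunoproteasome gene Psmb9, read 54.9, 47.2 and 51.6 CPM in Ctrl and 67.7, 121 and 70.7 CPM in Model. Tap2 read 48.8, 45.6 and 49.4 CPM in Ctrl and 54.6, 83.7 and 55.2 CPM in Model. For both, all Model libraries were above all Ctrl libraries, but Model 1 and Model 3 of Tap2 were only slightly so. The log2 differences were 0.75 for Tap1 (SE 0.24, adjusted p = 0.0338 by edgeR) and 0.43 for Tap2 (SE 0.15, adjusted p = 0.0435 by edgeR). The call of Tap1 was lost in 5 of 23 other settings, without Ctrl 1, Ctrl 2, Ctrl 3 or Model 2 and by limma with no filter, with adjusted p up to 0.132. That of Tap2 was lost in 10 of the 23, among them the fit to the Ctrl and Model libraries alone (adjusted p = 0.101 by edgeR), the replicate block, the term for pancreatic trace reads and the fits that left out Ctrl 1, Ctrl 2, Ctrl 3 or Model 2. On the FPKM scale Tap1 stood at 0.894 ± 0.0421 of Tap2 in Ctrl and at 1.11 ± 0.0886 in Model, with no overlap, and at 0.901 ± 0.145 and 0.886 ± 0.158 in Ctrl_Swim and Model_Swim.

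The abundant classical chains overlapped between Model and Ctrl. H2-K1 read 909, 866 and 972 CPM in Ctrl and 860, 1516 and 1017 CPM in Model. H2-D1 read 927, 867 and 919 CPM in Ctrl and 917, 1369 and 1011 CPM in Model. In both genes Model 1 lay within or below the Ctrl range, and Model 2 was far above it. The log2 differences were 0.30 for H2-K1 (SE 0.16, adjusted p = 0.173 by edgeR) and 0.28 for H2-D1 (SE 0.13, adjusted p = 0.114 by edgeR).

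B2m, the light chain that pairs with class I heavy chains, read 682, 657 and 701 CPM in Ctrl and 635, 1079 and 807 CPM in Model. Tapbp read 229, 211 and 226 CPM in Ctrl and 227, 284 and 242 CPM in Model. The groups overlapped for both, through Model 1. The log2 differences were 0.30 for B2m (SE 0.17, adjusted p = 0.199 by edgeR) and 0.17 for Tapbp (SE 0.087, adjusted p = 0.139 by edgeR).

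H2-T23 was the member that did not share the pattern of the others. It read 228, 238 and 243 CPM in Ctrl and 177, 252 and 259 CPM in Model. Model 1 was the lowest of all 12 libraries and Model 3 nearly the highest, with a log2 difference of -0.04 (SE 0.13, adjusted p = 0.834 by edgeR) whose sign was positive in some of the other settings. Across the 12 libraries its log2 CPM correlated with the other members at Pearson r between 0.13 and 0.62, while H2-Q4 and H2-Q6 stood at 0.988 and H2-K1 and H2-D1 at 0.975, values that share depth, tissue composition and, for the heavy chains, reads.

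**Figure D2:**
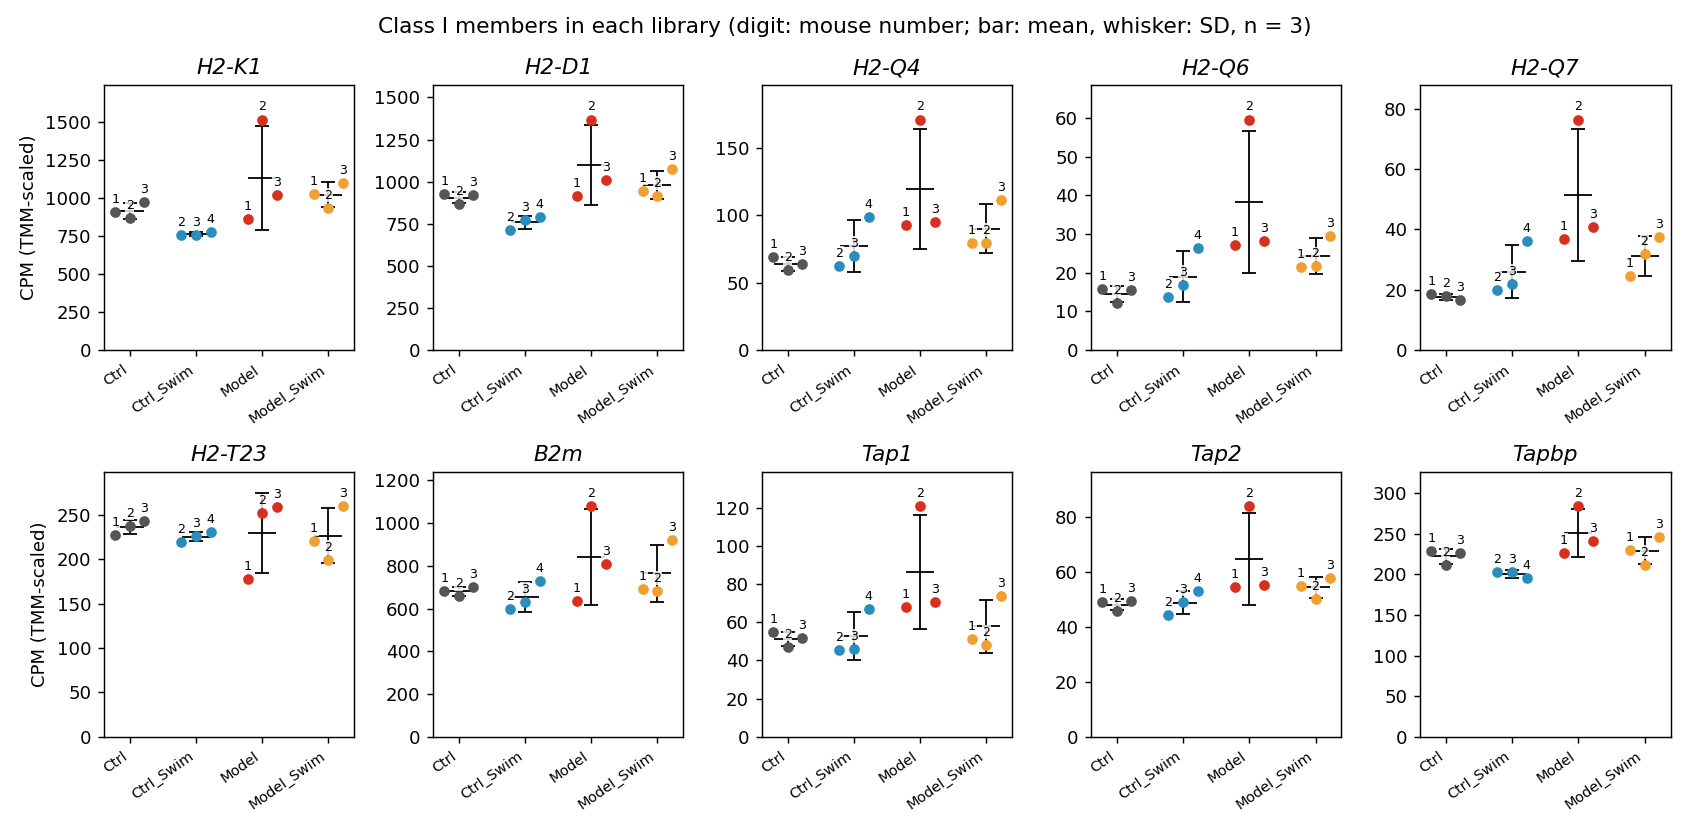
CPM of each of the 10 members in each library (linear axes from 0), with the group mean as a bar and the SD as whiskers (n = 3). Model 2 is the highest of the 12 libraries for 9 members, while in H2-T23 it lies below Model 3 and Model_Swim 3.

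Model 2 was the highest of all 12 libraries for 9 of the 10 members, and for 2130 of the 15484 genes tested. It stood at 4.35 times the Ctrl mean CPM for H2-Q7, 4.12 times for H2-Q6, 2.67 times for H2-Q4 and 2.36 times for Tap1. The mean of Model 1 and Model 3 was 2.21, 1.91, 1.46 and 1.35 times the Ctrl mean for the same genes. For H2-K1, H2-D1, B2m and Tapbp, Model 2 stood at 1.66, 1.51, 1.59 and 1.28 times Ctrl, while the mean of the other Model libraries was within 1.02 to 1.07 times Ctrl. The Qa genes were thus above every Ctrl library in all 3 Model libraries, whereas for the classical chains, B2m and Tapbp this held in Model 2 and Model 3 but not in Model 1.

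Without Model 2, only H2-Q6 and H2-Q7 of the 10 passed the test, where 3600 of 15668 genes passed in either direction, and their log2 differences were 0.95 and 1.16 (adjusted p = 0.0233 and 0.00920 by edgeR). In that fit H2-Q4 stood at 0.57 (adjusted p = 0.0636), Tap1 at 0.45 (adjusted p = 0.132) and Tap2 at 0.21 (adjusted p = 0.115). H2-Q4 also lost its call without Ctrl 2 or Ctrl 3 (adjusted p up to 0.0668 by edgeR). Leaving out Model 1 instead, 9 members passed, all but H2-T23, where 32.2% of all genes passed. H2-Q6 and H2-Q7 passed under each setting tried, including each library left out in turn.

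**Figure D3:**
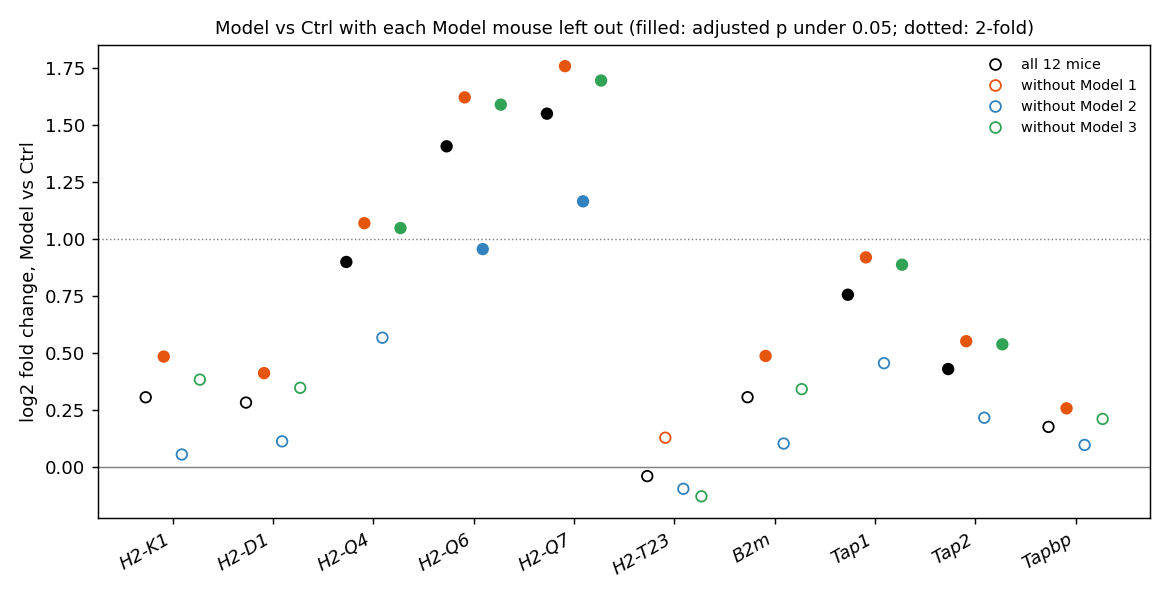
log2 difference of Model against Ctrl for each member, fitted with all 12 libraries and with each Model library left out (filled points passed at adjusted p under 0.05 by edgeR, the dotted line marks 2-fold). H2-Q6 and H2-Q7 are filled in all 4 fits, and without Model 2 every other member is open.

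The make-up of the tissue also differed between these libraries. The summed CPM of 10 leukocyte markers ran from 250 to 313 in Ctrl and from 535 to 615 in Model. Of these markers 8 of 10 passed the test as higher, against 16.5% of all genes. Epithelial markers of the colon summed to between 23442 and 25869 in Ctrl and between 13153 and 17822 in Model. Here 9 of 12 passed as lower, against 16.2% of all genes. The leukocyte sum was 555 in Model 1, 535 in Model 2 and 615 in Model 3. Macrophage and dendritic cell markers summed to 264, 300 and 307 CPM in the same libraries, and T cell markers to 56.6, 66.4 and 83.5 CPM. B cell markers summed to 145, 141 and 161 CPM. Markers of squamous epithelium, which lines the anal canal and not the colon, summed to 6.32 to 9.16 in Ctrl and to 780, 1740 and 6.54 in Model 1, 2 and 3. Pancreatic acinar markers summed to 61093 in Model 1 and 29907 in Model 3 but to no more than 1910 elsewhere. With the acinar genes removed the same 5 members passed, where 32.6% of all genes did. Without Model 2, 8 of the leukocyte markers still passed as higher and 7 of the epithelial markers as lower, while 0 of the 10 squamous markers passed, against 8 with it. What part leukocytes or squamous epithelium had in the rise of the members was not tested.

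In AOM/DSS mice that swam, all 10 members had fitted differences below 0 from AOM/DSS mice that did not, the widest of them in H2-Q7, H2-Q6 and Tap1, but none passed the test. Of the 10, 0 passed in Model_Swim against Model by edgeR and 0 by DESeq2, where 0.0710% of all genes passed by edgeR and 2.33% by DESeq2. At an unadjusted p under 0.05 there were 2 members, H2-Q7 and Tap1, against 13.6% of all genes. No member had Model_Swim libraries all below Model libraries, against 8.57% of all genes.

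H2-Q7 read 24.4, 31.8 and 37.5 CPM in Model_Swim 1, 2 and 3, and the highest of these lay above Model 1. Its log2 difference from Model was -0.72 (SE 0.29, adjusted p = 0.317 by edgeR). H2-Q6 read 21.5, 21.6 and 29.6 CPM and H2-Q4 79.1, 79.6 and 111 CPM in the same libraries, each with Model_Swim 3 above Model 1 and Model 3. Their log2 differences were -0.66 (SE 0.31, adjusted p = 0.386 by edgeR) and -0.41 (SE 0.25, adjusted p = 0.50 by edgeR).

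Tap1 read 51.3, 48.3 and 73.7 CPM in Model_Swim, where Model_Swim 1 and 2 were at the Ctrl level and Model_Swim 3 was not. Its log2 difference was -0.58 (SE 0.24, adjusted p = 0.329 by edgeR). Tap2 read 54.9, 50.0 and 57.8 CPM, Tapbp 230, 212 and 246 CPM and B2m 692, 684 and 920 CPM. Their differences of -0.25, -0.13 and -0.13 on the log2 scale had adjusted p of 0.487, 0.546 and 0.786 by edgeR, and each gene overlapped with Model.

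H2-K1 read 1026, 937 and 1101 CPM in Model_Swim, and H2-D1 read 947, 916 and 1078 CPM. H2-T23 read 221, 199 and 260 CPM. All 3 overlapped with Model, at log2 differences of -0.15, -0.17 and -0.02 (adjusted p = 0.748, 0.616 and 0.968 by edgeR). Without Model 2 the differences of H2-K1, H2-D1, H2-T23 and B2m were above 0, at 0.11, 0.01, 0.05 and 0.08.

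Cell markers moved as well between Model_Swim and Model. The leukocyte markers summed to between 350 and 446 CPM in Model_Swim, against 535 to 615 CPM in Model, and all 10 had fitted differences below 0, with 0 passing by edgeR and 8 without overlap, against 8.57% of all genes. The 8 B cell markers summed to between 46.1 and 73.7 CPM, against 141 to 161 CPM, with 0 passing and all 8 without overlap. The epithelial markers of the colon summed to between 20895 and 21412 CPM, against 13153 to 17822 CPM, where 11 of 12 differences were above 0 and 0 passed. The part of these cells in the members' lower values was not tested.

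Model_Swim also stood apart from Model in trace reads of pancreatic genes, which divide the 12 libraries into those at 0.0867% or more of the mean of Model 1 and Model 3 (all Ctrl, all Model and Ctrl_Swim 3) and those at 0.00923% or less (all Model_Swim, Ctrl_Swim 2 and Ctrl_Swim 4). Whatever this division stands for and swimming in AOM/DSS mice cannot be told apart, since no Model or Model_Swim library lies on the other side. Model and Ctrl lie on the same side. With the division as a term of the fit, 4 members passed in Model against Ctrl, where 31.1% of all genes did. In Model_Swim against Model 0 members and 0% of all genes passed with that term.

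In mice without AOM/DSS the classical chains and tapasin had differences below 0 and the Qa genes above 0 after swimming, but 0 of the 10 passed the test by edgeR or by DESeq2, where 0.969% of all genes passed by edgeR and 4.92% by DESeq2. At an unadjusted p under 0.05 there were 0 members, against 17.6% of all genes. H2-K1 read 756, 756 and 776 CPM in Ctrl_Swim 2, 3 and 4, H2-D1 715, 770 and 789 CPM, and Tapbp 202, 203 and 195 CPM. In CPM these 3 genes lay below every Ctrl library, as 14.9% of all genes did, at log2 differences of -0.26, -0.25 and -0.15 (adjusted p = 0.422, 0.331 and 0.386 by edgeR). On the FPKM scale all 3 overlapped with Ctrl, and limma on log2(FPKM + 1) gave smaller differences, -0.13, -0.13 and -0.021. H2-Q7 read 20.1, 21.9 and 36.1 CPM and lay above every Ctrl library, as 12.6% of all genes did, at 0.57 (adjusted p = 0.338 by edgeR). H2-Q4 read 62.4, 69.8 and 98.9 CPM and H2-Q6 13.8, 16.8 and 26.4 CPM, both overlapping with Ctrl, at 0.27 and 0.39 (adjusted p = 0.600 and 0.545 by edgeR).

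Ctrl_Swim 4 was the highest Ctrl_Swim library for every member but Tapbp. B2m read 597, 632 and 731 CPM in Ctrl_Swim 2, 3 and 4, Tap1 45.2, 46.0 and 67.1 CPM, Tap2 44.4, 49.1 and 52.8 CPM, and H2-T23 220, 227 and 231 CPM. The leukocyte markers summed to 262, 298 and 495 CPM and those of squamous epithelium to 71.2, 5.53 and 609 CPM in these libraries, so Ctrl_Swim 4 was also high in both. Their part in the levels of the Qa genes there was not tested.

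Among mice that swam, AOM/DSS was compared in Model_Swim against Ctrl_Swim. All 10 fitted differences were above 0 and 0 passed by edgeR, where 5.18% of all genes passed. At an unadjusted p under 0.05 there were 3 members, H2-D1 (0.37 on the log2 scale, adjusted p = 0.121), H2-K1 (0.42, adjusted p = 0.162) and Tapbp (0.19, adjusted p = 0.213), against 22.4% of all genes. DESeq2 called 1, H2-D1, and 10.6% of all genes. The same 3 genes had every Model_Swim library above every Ctrl_Swim library, against 15.9% of all genes. H2-Q7, with the largest difference in Model against Ctrl, stood at 0.26 (adjusted p = 0.644) with overlapping groups. Without Ctrl_Swim 3, the groups compared hold only libraries low in pancreatic trace reads, and 0 members passed, against 1.44% of all genes. The Ctrl and Model libraries, which are not low in them, still entered that shared fit. There H2-K1, H2-D1 and Tapbp stood at 0.41, 0.37 and 0.20 (adjusted p = 0.300, 0.231 and 0.332 by edgeR). Without Model 2, which is in neither group but enters the shared fit, H2-D1 and H2-K1 passed at log2 differences of 0.36 and 0.41 (adjusted p = 0.0339 and 0.0255 by edgeR), where 6.11% of all genes passed.

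**Figure D4:**
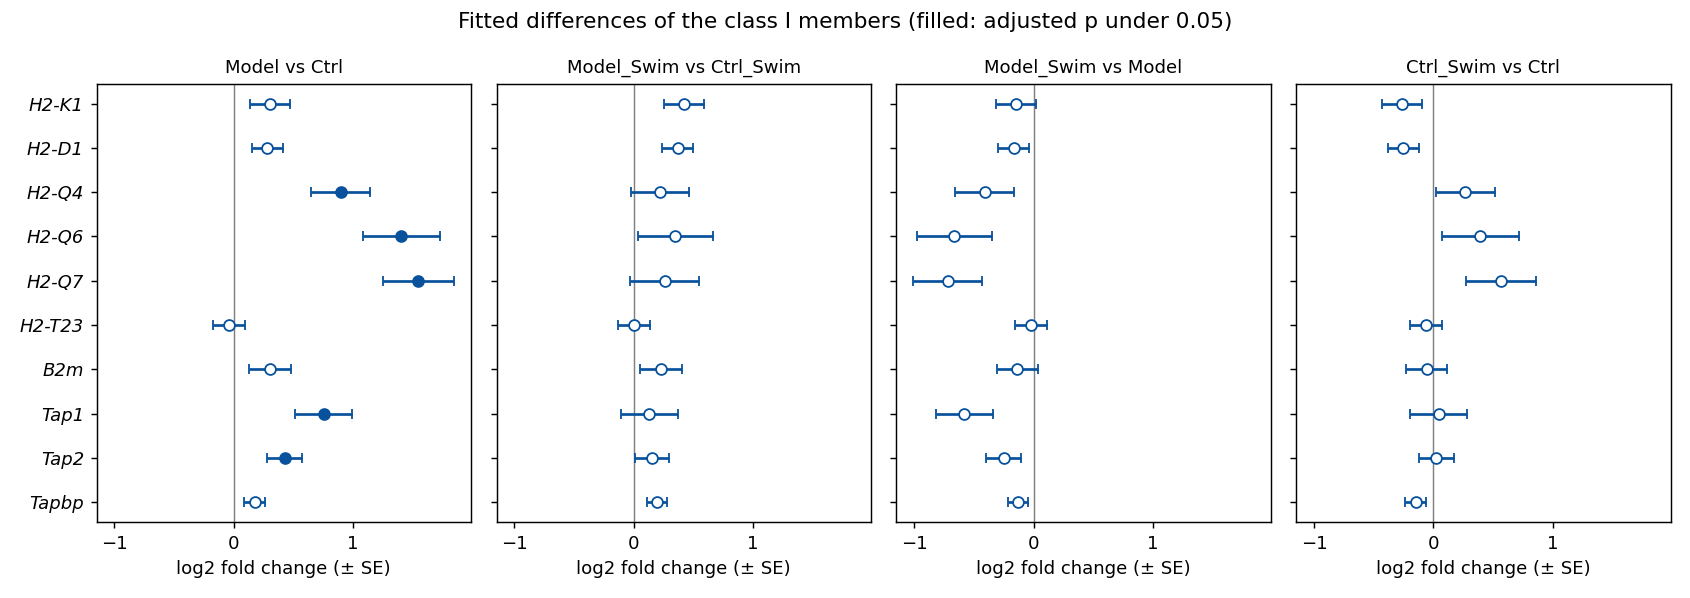
log2 difference ± SE of each member in 4 comparisons (edgeR, filled at adjusted p under 0.05). The 5 filled points are H2-Q4, H2-Q6, H2-Q7, Tap1 and Tap2 in Model against Ctrl, and in Model_Swim against Ctrl_Swim the classical chains lie farther from 0, relative to their SE, than the Qa genes.

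The difference between these effects was tested as an interaction, (Model_Swim less Model) less (Ctrl_Swim less Ctrl). By edgeR 0 members and 0% of all genes passed. Unadjusted p was under 0.05 for 2 members, H2-Q7 at -1.29 (SE 0.41, adjusted p = 0.149) and H2-Q6 at -1.05 (SE 0.45, adjusted p = 0.234), against 19.0% of all genes, and DESeq2 called 1, H2-Q7, and 5.52% of all genes. H2-Q4 stood at -0.68 (adjusted p = 0.314) and Tap1 at -0.62 (adjusted p = 0.339). An effect of swimming that depends on AOM/DSS was therefore not shown for any member by edgeR.

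Averaged over swimming, with 6 AOM/DSS libraries against 6 without, 7 of the 10 members passed as higher by edgeR, against 17.0% of all genes. They were H2-Q7 (0.91 on the log2 scale, adjusted p = 0.00716), H2-Q6 (0.88, adjusted p = 0.0124), H2-D1 (0.33, adjusted p = 0.0192), H2-Q4 (0.56, adjusted p = 0.0297), H2-K1 (0.36, adjusted p = 0.0338), Tapbp (0.18, adjusted p = 0.0386) and Tap2 (0.29, adjusted p = 0.0493). Tap1 (0.44, adjusted p = 0.0652) and B2m (0.27, adjusted p = 0.118) did not pass. No member had all 6 libraries with AOM/DSS above all 6 without, against 5.97% of all genes. Without Ctrl 2, Ctrl_Swim 2, Ctrl_Swim 3 or Model_Swim 3, only H2-D1, H2-Q6 and H2-Q7 passed, where 25.4% to 27.6% of all genes passed in either direction. The same 3 passed with the division by pancreatic trace reads in the fit, where 28.0% of all genes did. H2-K1 joined these 3 without Ctrl 3 (26.3% of all genes) or Model 2 (28.3%), and H2-Q4 did so without Model_Swim 1 (27.2%).

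Among the heavy chain members, the summed share of the Qa genes was lowest in Ctrl, though no test of shares was made. On the FPKM scale H2-Q4, H2-Q6 and H2-Q7 made up 5.23% ± 0.322 of the summed heavy chain in Ctrl, 7.58% ± 1.83 in Ctrl_Swim, 9.27% ± 1.51 in Model and 7.28% ± 0.809 in Model_Swim (SD, n = 3). The Ctrl libraries, at most 5.60%, were below all other libraries. H2-T23 made up 15.2% ± 0.716, 16.5% ± 0.443, 12.1% ± 2.23 and 13.2% ± 0.524 in the same order, and H2-K1 and H2-D1 together 79.6%, 75.9%, 78.6% and 79.5%. The summed heavy chain was 1114 ± 33.3 FPKM in Ctrl, 1070 ± 104 in Ctrl_Swim, 1498 ± 403 in Model and 1315 ± 131 in Model_Swim. H2-Q1, H2-Q2 and H2-Q10 are not in these sums. Mean CPM was lower in Model than in Ctrl for H2-Q2 (76.4 ± 38.4 against 102 ± 5.94) and H2-Q10 (8.75 ± 2.83 against 10.6 ± 3.25). It was higher for H2-Q1 (18.5 ± 9.48 against 12.9 ± 1.51), and each of these genes overlapped between the groups.

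Most other class I genes did not pass the test in Model against Ctrl. Of the 14 tested among 28 other class I and class I-like genes, 3 passed as higher and 1 as lower, against 16.5% and 16.2% of all genes. Their median log2 difference was 0.13. Mr1, which presents vitamin B metabolites to MAIT cells, was at 0.50 (adjusted p = 0.0182 by edgeR), H2-M2 at 0.73 (adjusted p = 0.0420) and Cd1d1, which presents lipids to NKT cells and was named after its value was seen, at 0.47 (adjusted p = 0.0445). H2-T3, the thymus leukemia antigen of gut epithelium, was lower at -1.56 (adjusted p = 0.0437). It read 7.51 and 8.94 CPM in Model 1 and 2 but 46.1 CPM in Model 3, against 55.5 to 70.8 CPM in Ctrl. Without Model 2, 1 of these genes passed as higher and 0 as lower.

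No listed gene of the inducible or constitutive proteasome passed as higher in Model, although Psmb8 and Psmb9 had fitted differences above 0. Of 5 immunoproteasome and PA28 genes, 0 passed as higher and 2 as lower, against 16.5% and 16.2% of all genes. Those lower were Psmb10 (-0.29, adjusted p = 0.0366 by edgeR) and Psme1 (-0.28, adjusted p = 0.0465). Psmb8, the inducible subunit encoded beside Tap1, read 50.5, 39.5 and 43.6 CPM in Ctrl and 48.1, 93.7 and 54.4 CPM in Model, at a log2 difference of 0.55 (adjusted p = 0.103), and Psmb9 was at 0.37 (adjusted p = 0.216). Model 2 was again the highest Model library for Psmb8. No difference between these genes and the transporter was tested. All 8 constitutive proteasome genes had differences below 0 and 6 passed as lower, led by Psmb4 (-0.35, adjusted p = 0.00203), Psmb6 (-0.38, adjusted p = 0.00227) and Psmb1 (-0.37, adjusted p = 0.00293). The epithelial markers were lower in the same libraries, and their part in this was not tested. Without Model 2 the lower counts were 1 of 5 and 5 of 8.

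Over all genes tested, 16.5% passed as higher and 16.2% as lower in Model against Ctrl. In the loading complex and trimming list, 0 of 11 tested genes passed as higher and 4 as lower. They were Erap1, the aminopeptidase that trims peptides to length (-0.34, adjusted p = 0.00248 by edgeR), Bcap31 (-0.28, adjusted p = 0.0139), the thiol oxidoreductase Pdia3 (-0.27, adjusted p = 0.0163) and the chaperone Canx (-0.24, adjusted p = 0.0486, named after its value was seen). Without Model 2, 1 passed as lower. In Ctrl_Swim against Ctrl, Calr (-0.48, adjusted p = 0.0266) and Pdia3 (-0.38, adjusted p = 0.0431), chaperones of the same complex, passed as lower. No member passed there, and 0.969% of all genes did in either direction. Calr read 948, 881 and 844 CPM in Ctrl and 585, 679 and 647 CPM in Ctrl_Swim. The call of Calr held in 10 of 23 other settings and that of Pdia3 in 6, with adjusted p up to 0.456 for both.

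Among 16 regulators of class I transcription, 3 passed as higher and 1 as lower in Model against Ctrl, where 16.5% and 16.2% of all genes did. Nlrc5, the transactivator of class I genes, had the largest difference, 1.77 on the log2 scale (SE 0.33, adjusted p = 0.00303 by edgeR), and passed in all 23 other settings. It read 14.8, 12.5 and 11.5 CPM in Ctrl and 31.7, 61.5 and 39.5 CPM in Model, with all Model libraries above Ctrl and Model 2 highest. It read 12.4, 15.6 and 27.4 CPM in Ctrl_Swim and 19.5, 23.1 and 34.1 CPM in Model_Swim, where Ctrl_Swim 4 and Model_Swim 3 were high, as they were for the Qa genes. Rfx5 (0.44, adjusted p = 0.00687) and, named after its value was seen, Rela (0.31, adjusted p = 0.0291) were higher, and Nfyc (-0.33, adjusted p = 0.0269) was lower. Without Model 2, 2 of the 16 passed as higher and 0 as lower. Of the 5 tested genes of interferon gamma signalling (Ifng itself was not among the genes tested), the receptor genes Ifngr1 and Ifngr2 were at -0.02 and -0.19 (adjusted p = 0.835 and 0.289 by edgeR) and the inhibitor Socs1 at 0.21 (adjusted p = 0.599 by edgeR). Only the kinases that this receptor shares with other cytokine receptors passed as higher. Jak1 (0.19, adjusted p = 0.0164) and Jak2 (0.25, adjusted p = 0.0382) were so by edgeR, and 1 of the 5 was without Model 2.

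In a list of immune receptors for class I and related molecules, 5 of 9 tested genes passed as higher in Model and 0 as lower. Over all genes these shares were 16.5% and 16.2%. The list also holds Lilrb4a, which binds other ligands, and Klrk1, which reads stress-induced relatives of class I. The 9 had a median log2 difference of 1.27 against 1.12 for the 10 leukocyte markers. Lilrb4a, an inhibitory receptor of myeloid cells, was at 1.74 (adjusted p = 0.000831 by edgeR), Pirb, an inhibitory receptor for class I on myeloid and B cells, at 1.06 (adjusted p = 0.00898) and Klra2, of the Ly49 family, at 1.35 (adjusted p = 0.0125). Klrd1 and Klrk1, named after their values were seen, were at 0.97 and 1.27 (adjusted p = 0.0236 and 0.0246). Lilrb4a read 6.13, 5.94 and 3.52 CPM in Ctrl and 19.7, 17.4 and 15.2 CPM in Model, so that Model 2 did not lead. It also passed in Model_Swim against Ctrl_Swim, at 1.20 (adjusted p = 0.0209), where no member did, but that call was lost in 6 of 23 other settings, with adjusted p up to 0.0952. Without Model 2, 2 of these receptors passed.

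The genes most like the members included 3 of the class II pathway. Over the 12 libraries, and among 10360 genes, the mean of the members' standardized log2 CPM was followed most closely by Cd74, the invariant chain of class II (Pearson r = 0.976), the nucleotide hydrolase Samhd1 (0.967), the immunoproteasome subunit Psmb8 (0.967), H2-Ab1 (0.963) and H2-Aa (0.941). These correlations carry no test, since the libraries share groups and tissue composition. Cd74 read 502, 413 and 426 CPM in Ctrl and 584, 1476 and 699 CPM in Model. H2-Ab1 read 158, 148 and 141 CPM in Ctrl and 199, 470 and 230 CPM in Model, with the same lead of Model 2.

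**Figure D5:**
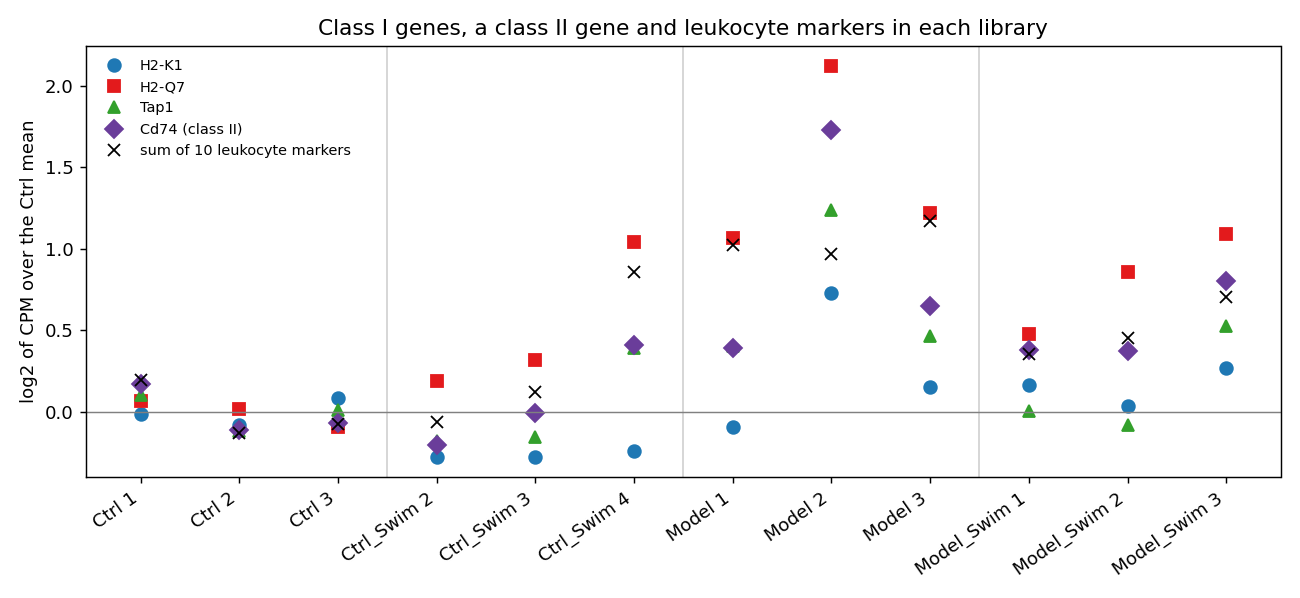
log2 of CPM over the Ctrl mean in each library for H2-K1, H2-Q7, Tap1, the class II gene Cd74 and the summed leukocyte markers. In Model 2 all 4 genes are at their highest, while the leukocyte sum there, 0.97, lies just below those of Model 1 (1.02) and Model 3 (1.17).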

How the data were processed

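RNA of 12 colorectal samples was sequenced from TruSeq Stranded mRNA libraries on a HiSeq X. The authors trimmed the reads with Trimmomatic and aligned them to GRCm38.p6 with HISAT2. The deposited gene counts came from HTSeq-count and the deposited FPKM values from Cufflinks. The versions and the annotation release were not given in the sources used here. Counts of 3 or fewer equal about 0.154 to 0.174 CPM, a limit that covers counting error only. In R 4.3.3, edgeR 4.0.16 was used to fit all 4 groups together (TMM, genes kept by filterByExpr at a minimum count of 10, quasi-likelihood test, Benjamini-Hochberg adjustment over all 15484 genes of a comparison), and a gene passed at an adjusted p under 0.05. The fitting was tested on simulated data. Levels are TMM-scaled CPM, and values between genes are compared as FPKM. DESeq2 1.42.0, limma 3.58.1 on log2(FPKM + 1) and log2(FPKM + 0.1), and fits without single libraries were alternatives. All members were named, and of each pathway list, the 3 genes with the smallest adjusted p in Model against Ctrl, and any that passed in a swimming comparison. Members, lists and markers were chosen with earlier results of these data known. That libraries came from separate mice was only inferred from their numbering. Nothing states which part of the colorectum, or whether tumour, was taken, so p-values measure the spread between these samples. Sequences are from RefSeq GRCm38.p6, where 17577 of 18514 symbols were found, and shared stretches were counted in GENCODE transcripts.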

Additional observations from a re-analysis of the deposited data

How the results depend on the processing

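The count of members that passed in Model against Ctrl ran from 2 to 9 with single libraries left out, was 9 without Model 1 and Model 3 (32.7% of all genes) and 2 with the 2-fold limit added. Without Ctrl 2 or Ctrl 3 it was 2 (20.1% and 20.8%), and without Ctrl 1 it was 3 (22.3%). In Model_Swim against Model it was 0 with each library left out (up to 5.62%, without Model 3) and 5 without Model 1 and Model 3 (3.57% of all genes), where the lone Model library is assumed to vary like the other groups. In Model_Swim against Ctrl_Swim the count was 1 by DESeq2 (10.6%), 2 from those groups alone (8.59%), 2 without Model 1 and Model 3 (13.5%), and 0 to 2 with single libraries left out. The interaction count was 1 by DESeq2 (5.52%) and 3 without Model 1 and Model 3 (5.75%). The mean effect of AOM/DSS called 3 to 9 with single libraries left out, where 25.4% to 36.8% of all genes passed. It called 3 with the trace-read division (28.0%), 4 by limma on log2(FPKM + 1) with no filter (24.9%), and 0 with the 2-fold limit. H2-T23 in Model against Ctrl was at 0.053 on the log2 scale by limma on log2(FPKM + 1), with or without the filter, at 0.054 with 0.1 added, at 0.074 without Model 1 and Model 3, and between -0.13 and 0.13 with single libraries left out. Its Model_Swim difference was 0.00058 with no filter, and ranged from -0.18 to 0.088 with single libraries left out, as H2-K1 did from -0.32 to 0.11, H2-D1 from -0.29 to 0.013 and B2m from -0.31 to 0.077. The causes were not tested. DESeq2 size factors in edgeR changed no count of members.

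Deviations from the group means correlated at r from -0.26 to 0.56 between same-numbered libraries of different groups (15 pairs, 4 over 0.1). Libraries of unlike numbers stood at -0.56 to 0.45 (39 pairs, 13 over 0.1). The highest r was that of Ctrl_Swim 3 with Model 3, which share a number. Tissue composition enters these values too, so whether the number pairs mice or marks a batch cannot be told from them. With a replicate block, 4 members passed in Model against Ctrl (27.9% of all genes) and 5 in the mean effect (28.3%). In the other comparisons 0 members passed, where at most 0.258% of all genes did. The Ctrl_Swim differences of H2-Q4 and H2-Q6 turned to -0.029 and -0.014 with that block.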
